A study of Homo sapiens with 16 samples.

Results

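This account covers 9 genes of antigen presentation by HLA class I: the heavy chain genes HLA-B, HLA-C, HLA-E and HLA-F, the light chain gene B2M, the transcriptional coactivator NLRC5, and the peptide loading genes TAP1, TAP2 and TAPBP. They are 9 of the 64252 gene identifiers in the tables, and all 9 passed the filter on low counts in every comparison. They were picked by name because earlier results of these data had shown them moving in opposite directions with sh-SH2D1A in Jurkat and in 6T-CEM at day 10, and for their levels by day in the controls. Their values in those comparisons are therefore given as a description, with no test. Messenger RNA had been sequenced from 2 established human T-cell acute lymphoblastic leukaemia lines, in 16 libraries and 8 groups of 2. The groups were Jurkat at day 10 with sh-SH2D1A and with sh-NC, Jurkat at day 8 with sh-SH2D1A and with sh-NC, 6T-CEM at day 10 with sh-SH2D1A and with sh-NC, and 6T-CEM at day 5 with sh-SH2D1A and with sh-NC. sh-SH2D1A is a short hairpin RNA against SH2D1A, which encodes the adaptor protein SAP, and sh-NC is the control hairpin that the reference cells carried. The event from which the days count, the number of hairpins against SH2D1A and whether libraries of a group were separate cultures were not given in the sources used here, so p-values measure only the spread between libraries.

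HLA class I molecules carry peptides from inside the cell to its surface, where cytotoxic T cells read them. Each molecule is a heavy chain bound to beta-2 microglobulin, the product of B2M. TAP1 and TAP2 form the transporter that brings peptides into the endoplasmic reticulum, and tapasin, the product of TAPBP, holds the empty molecule at that transporter. NLRC5 has no DNA-binding domain of its own and acts through factors bound to the X and Y boxes of class I promoters, while interferon and NF-kB act through separate elements. HLA-B and HLA-C are classical heavy chains. HLA-E presents mainly leader peptides of other class I chains to receptors of natural killer cells, and HLA-F is a low-abundance class I chain related to them.

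Promoter sequences of 5 members are shown because the members differ in which of these elements their letters hold. Each line is the 250 bases before the RefSeq start on GRCh38.p14, 5′ to 3′ on the strand of the gene, with matches to any of 5 motifs in capitals. HLA-B is chr6:31357180-31357429 (minus strand), HLA-C is chr6:31272093-31272342 (minus strand), B2M is chr15:44711267-44711516 (plus strand), TAP1 is chr6:32853705-32853954 (minus strand) and TAPBP is chr6:33314079-33314328 (minus strand).
HLA-B: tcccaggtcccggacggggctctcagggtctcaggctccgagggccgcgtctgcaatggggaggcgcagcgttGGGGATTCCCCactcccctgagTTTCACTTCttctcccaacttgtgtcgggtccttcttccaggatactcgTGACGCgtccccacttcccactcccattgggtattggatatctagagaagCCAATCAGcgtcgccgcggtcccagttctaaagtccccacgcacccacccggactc
HLA-C: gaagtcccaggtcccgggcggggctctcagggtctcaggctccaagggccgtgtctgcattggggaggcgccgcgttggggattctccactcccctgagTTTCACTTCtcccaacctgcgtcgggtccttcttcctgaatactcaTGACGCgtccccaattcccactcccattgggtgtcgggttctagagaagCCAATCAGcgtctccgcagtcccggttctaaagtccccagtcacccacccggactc
B2M: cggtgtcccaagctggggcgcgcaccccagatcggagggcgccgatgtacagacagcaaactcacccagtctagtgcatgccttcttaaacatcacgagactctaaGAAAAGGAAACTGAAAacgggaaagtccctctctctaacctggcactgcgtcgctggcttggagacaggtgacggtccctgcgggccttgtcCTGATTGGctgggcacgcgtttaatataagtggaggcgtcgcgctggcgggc
TAP1: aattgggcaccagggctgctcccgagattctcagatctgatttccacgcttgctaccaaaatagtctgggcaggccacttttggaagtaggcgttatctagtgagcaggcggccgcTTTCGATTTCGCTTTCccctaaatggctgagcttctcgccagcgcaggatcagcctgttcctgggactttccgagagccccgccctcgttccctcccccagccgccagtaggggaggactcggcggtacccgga
TAPBP: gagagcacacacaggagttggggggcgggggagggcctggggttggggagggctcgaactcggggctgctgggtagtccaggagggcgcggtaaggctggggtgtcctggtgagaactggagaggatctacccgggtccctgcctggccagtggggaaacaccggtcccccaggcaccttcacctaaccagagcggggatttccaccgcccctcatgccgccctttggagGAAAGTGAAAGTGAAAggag
The motifs, read on both strands, were the Y box CTGATTGG, found in 3.81% of 35116 RefSeq promoters of the same length, the X2 box TGACGC, in 7.67%, an interferon response core (GAAA, any pair of bases, GAAA), in 3.02%, a shorter form of it (GAA, any pair of bases, GAAA), in 6.56%, and a kB site (GGGA, any base, T, any base, CCC), in 1.21%. HLA-B and HLA-C both held the short interferon form, the X2 box and the Y box, in that order towards the start. HLA-B also held a kB match that reads on both strands, and no other member with a sequence matched this exact pattern. Looser forms of a kB site were not searched for, so their absence from the other members is not shown. B2M held 2 overlapping interferon cores and a Y box. TAP1 and TAPBP each held 2 overlapping interferon cores and neither box. Of the members not printed, HLA-F held an interferon core and a Y box, and TAP2 held an interferon core, an overlapping short form and an X2 box. TAP1 has a second listed start whose 250 bases held none of the 5. The RefSeq table matched 7 of the 9 members, and HLA-E and NLRC5 had no entry. A match is a description of letters and not a shown binding site.

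The counts of 8 of the 9 members rest on loci that have several annotated copies. In GENCODE 29, on GRCh38, 48 of 58 HLA-B transcripts, 81 of 91 for HLA-C, 18 of 21 for HLA-E, 91 of 106 for HLA-F, 14 of 29 for B2M, 21 of 27 for TAP1, 32 of 37 for TAP2 and 42 of 51 for TAPBP lie on alternate loci or patches, and 0 of 29 for NLRC5. The tables list 3628 identifiers annotated there, 2269 of them with counts. They hold 1.44 to 2.08% of the counts of a library, and none could be paired with a gene name. Reads of these genes may therefore be divided between a named and an unnamed copy, which can lower the levels given here and can differ between lines that carry different alleles. Neighbours matter too: the annotated span of HLA-B (chromosome 6, 31269491 to 31357188) covers HLA-C (31268749 to 31272130) on the same strand, that of TAP1 (32845209 to 32853978) overlaps PSMB9 on the other strand, and that of HLA-F (29722775 to 29738528) overlaps HLA-F-AS1 on the other strand. TAP2 (32821833 to 32838780) overlaps AL669918.1 on its own strand. HLA-E (30489467 to 30494205) and TAPBP (33299694 to 33314387), also on chromosome 6, and B2M on chromosome 15 (44711487 to 44718877) overlap no other gene. NLRC5 lies on chromosome 16 (56989485 to 57083531) and overlaps AC023825.1 and AC023825.2 on the other strand. The strand setting of the counting is not given in the sources used here.

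Total counts ran from 27217899 to 33788024 per library, and raw counts of the members from 49 for HLA-F to 12499 for B2M. Levels below are CPM, each count as a share of its library's total, scaled by TMM over the 16 libraries. A change is the log2 ratio of sh-SH2D1A to sh-NC ± its standard error. SH2D1A fell in all 4 comparisons, in Jurkat by 1.60 ± 0.10 (day 10) and 1.72 ± 0.07 (day 8) and in 6T-CEM by 1.00 ± 0.05 (day 10) and 1.71 ± 0.12 (day 5) (edgeR adjusted p = 6.3e-05, 3e-05, 1.14e-05 and 0.00191). T cell markers of the fixed list were present in both lines, except that CD2 was between 0.991 and 3.92 CPM in 6T-CEM. The sh-SH2D1A pair of 6T-CEM at day 5 was the least alike: chi-square over degrees of freedom was 24.6 between its libraries and 5.01 to 10.2 within the other 7 groups. Without replicate 1 and without replicate 2 of that pair SH2D1A changed by -1.63 and -1.80, and the members are given both ways with that day's test.

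HLA-B, a classical heavy chain, was lower with sh-SH2D1A in Jurkat and higher with it in 6T-CEM at day 10. In Jurkat at day 10 it had 84.2 and 79.2 CPM in the sh-SH2D1A libraries, against 199 and 169 CPM in sh-NC, and the change was -1.17 ± 0.10. In Jurkat at day 8 the sh-SH2D1A libraries had 61.7 and 58.4 CPM and the sh-NC libraries 115 and 122 CPM (-0.99 ± 0.06). No Jurkat library with sh-SH2D1A reached the level of a control of its day. In 6T-CEM at day 10 the sh-SH2D1A libraries had 128 and 127 CPM, against 78.3 and 77.6 CPM in sh-NC, or 0.71 ± 0.04. Ordered over the 8 groups, HLA-B stood highest in Jurkat day 10 controls at 184 ± 21.0 CPM (SD, n = 2) and lowest in 6T-CEM day 5 sh-SH2D1A cells at 50.7 ± 11.6 CPM. Neighbours in that order overlapped in 2 places, 6T-CEM day 5 sh-NC with Jurkat day 10 sh-SH2D1A, and Jurkat day 8 sh-SH2D1A with 6T-CEM day 5 sh-SH2D1A.

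HLA-C moved less than HLA-B in Jurkat. It had 137 and 122 CPM in Jurkat day 10 sh-SH2D1A libraries, against 187 and 161 CPM in sh-NC (-0.42 ± 0.10), and at day 8 99.3 and 99.7 CPM against 125 and 139 CPM (-0.41 ± 0.06). The 6T-CEM day 10 libraries had 175 and 163 CPM with sh-SH2D1A, against 110.0 and 117 CPM in sh-NC, a change of 0.58 ± 0.05. The level of HLA-B per kb of transcript over that of HLA-C was 0.880 and 0.926 in Jurkat day 10 sh-SH2D1A libraries, against 1.518 and 1.499 in sh-NC, and 0.887 and 0.836 against 1.31 and 1.26 at day 8. In 6T-CEM at day 10 that ratio was 1.04 and 1.11 with sh-SH2D1A, against 1.02 and 0.950 in sh-NC. At day 5 in 6T-CEM it was 0.859 and 0.834 with sh-SH2D1A, against 1.21 and 1.04 in sh-NC. HLA-B thus made up a smaller part of these 2 classical chains with sh-SH2D1A in Jurkat on both days and in 6T-CEM at day 5. In 6T-CEM at day 10 it made up a larger part with sh-SH2D1A, by a narrow gap. The sh-SH2D1A and sh-NC libraries did not overlap in any of these comparisons. Because the span of HLA-B covers HLA-C, the division of reads between them is uncertain, and its part in this ratio was not tested.

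The rarer chains HLA-E and HLA-F went the same ways at day 10. HLA-E had 21.0 and 21.4 CPM in Jurkat day 10 sh-SH2D1A libraries, against 35.4 and 35.7 CPM in sh-NC (-0.74 ± 0.11). At day 8 in Jurkat it had 10.4 and 9.21 CPM with sh-SH2D1A, against 24.7 and 22.4 CPM in sh-NC, and -1.27 ± 0.12 was its widest change. The 6T-CEM day 10 values were 14.3 and 16.8 CPM with sh-SH2D1A, against 11.0 and 13.4 CPM in sh-NC (0.36 ± 0.14), and the gap between these groups was small beside the spread within each. HLA-F had 5.49 and 5.39 CPM in Jurkat day 10 sh-SH2D1A libraries, against 9.41 CPM in both sh-NC libraries (-0.79 ± 0.18). In Jurkat at day 8 the sh-SH2D1A libraries, at 4.90 and 4.92 CPM, lay between the sh-NC libraries at 3.47 and 6.69 CPM, with -0.06 ± 0.30. HLA-F in 6T-CEM at day 10 had 9.01 and 10.8 CPM with sh-SH2D1A, against 5.32 and 4.68 CPM in sh-NC, and its change of 0.99 ± 0.17 was the largest of the 9 there. HLA-F had at most 358 counts in a library, so it carries the widest counting error of the heavy chains.

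B2M, whose product every class I heavy chain needs, went the same ways as HLA-B and HLA-C, changing by more than HLA-C and less than HLA-B in Jurkat and by less than either in 6T-CEM at day 10. It had 299 and 280.3 CPM in Jurkat day 10 sh-SH2D1A libraries, against 421 and 444 CPM in sh-NC (-0.58 ± 0.08). At day 8 in Jurkat it had 252 and 235 CPM with sh-SH2D1A, against 346 and 371 CPM in sh-NC (-0.57 ± 0.06). Both days gave nearly one value for the change, and the groups did not overlap. B2M in 6T-CEM at day 10 had 274 and 265 CPM with sh-SH2D1A, against 214 and 200.5 CPM in sh-NC (0.38 ± 0.04). The 4 heavy chains summed per kb came to 1.01 and 0.990 times B2M in Jurkat day 10 sh-SH2D1A libraries, against 1.30 and 1.07 in sh-NC, and 0.864 and 0.904 against 0.972 and 0.985 at day 8. In 6T-CEM at day 10 the ratio was 1.502 and 1.511 with sh-SH2D1A, against 1.20 and 1.31 in sh-NC. The ratio of heavy chains to light chain was thus lower with sh-SH2D1A in Jurkat and higher with it in 6T-CEM at day 10, with no overlap.

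NLRC5, the coactivator of class I promoters and the one member with no copy on an alternate locus, showed the same crossing. It had 39.3 and 41.4 CPM in Jurkat day 10 sh-SH2D1A libraries, against 74.0 and 63.3 CPM in sh-NC (-0.76 ± 0.10), and at day 8 36.8 and 34.2 CPM against 58.0 and 50.1 CPM (-0.61 ± 0.09). The 6T-CEM day 10 values were 61.6 and 61.4 CPM with sh-SH2D1A, against 34.3 and 35.4 CPM in sh-NC, or 0.82 ± 0.06. The 6T-CEM day 10 cells with sh-SH2D1A thus came close to the level of Jurkat day 10 controls, at 61.5 ± 0.0936 and 68.6 ± 7.56 CPM (SD, n = 2 each), and the 2 groups did not overlap.

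The loading genes did not follow one course. TAP1 had 7.70 and 7.62 CPM in Jurkat day 10 sh-SH2D1A libraries, against 5.14 and 5.19 CPM in sh-NC (0.57 ± 0.19), so it was higher there, against the direction of the heavy chains. TAP1 in 6T-CEM at day 10 had 19.3 and 12.6 CPM with sh-SH2D1A, against 7.81 and 10.5 CPM in sh-NC (0.80 ± 0.22). Its Jurkat day 8 libraries overlapped, at 7.37 and 5.20 CPM with sh-SH2D1A and 10.2 and 6.45 CPM in sh-NC (-0.41 ± 0.27). TAP1 is thus the one member whose day 10 change was above 0 in both lines, and it does not show the opposite directions by which the 9 were listed. TAP2 lay between 6.60 and 10.9 CPM in all 16 libraries, and its Jurkat changes, -0.30 ± 0.21 at day 10 and 0.08 ± 0.17 at day 8, came with overlapping libraries. At day 10 in 6T-CEM TAP2 had 9.01 and 10.4 CPM with sh-SH2D1A, against 7.95 and 6.97 CPM in sh-NC (0.39 ± 0.16). For TAPBP the Jurkat changes were -0.36 ± 0.13 at day 10 and -0.17 ± 0.09 at day 8, and the 6T-CEM day 10 change was 0.11 ± 0.09, where both sh-SH2D1A libraries, at 21.7 and 21.9 CPM, lay just above the sh-NC libraries at 19.3 and 21.3 CPM. PSMB9, an immunoproteasome gene that overlaps TAP1, swung widely between replicates, with 0.102 and 2.51 CPM in the 6T-CEM day 5 sh-NC libraries, and any share of TAP1 in that was not tested.

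**Figure D1:**
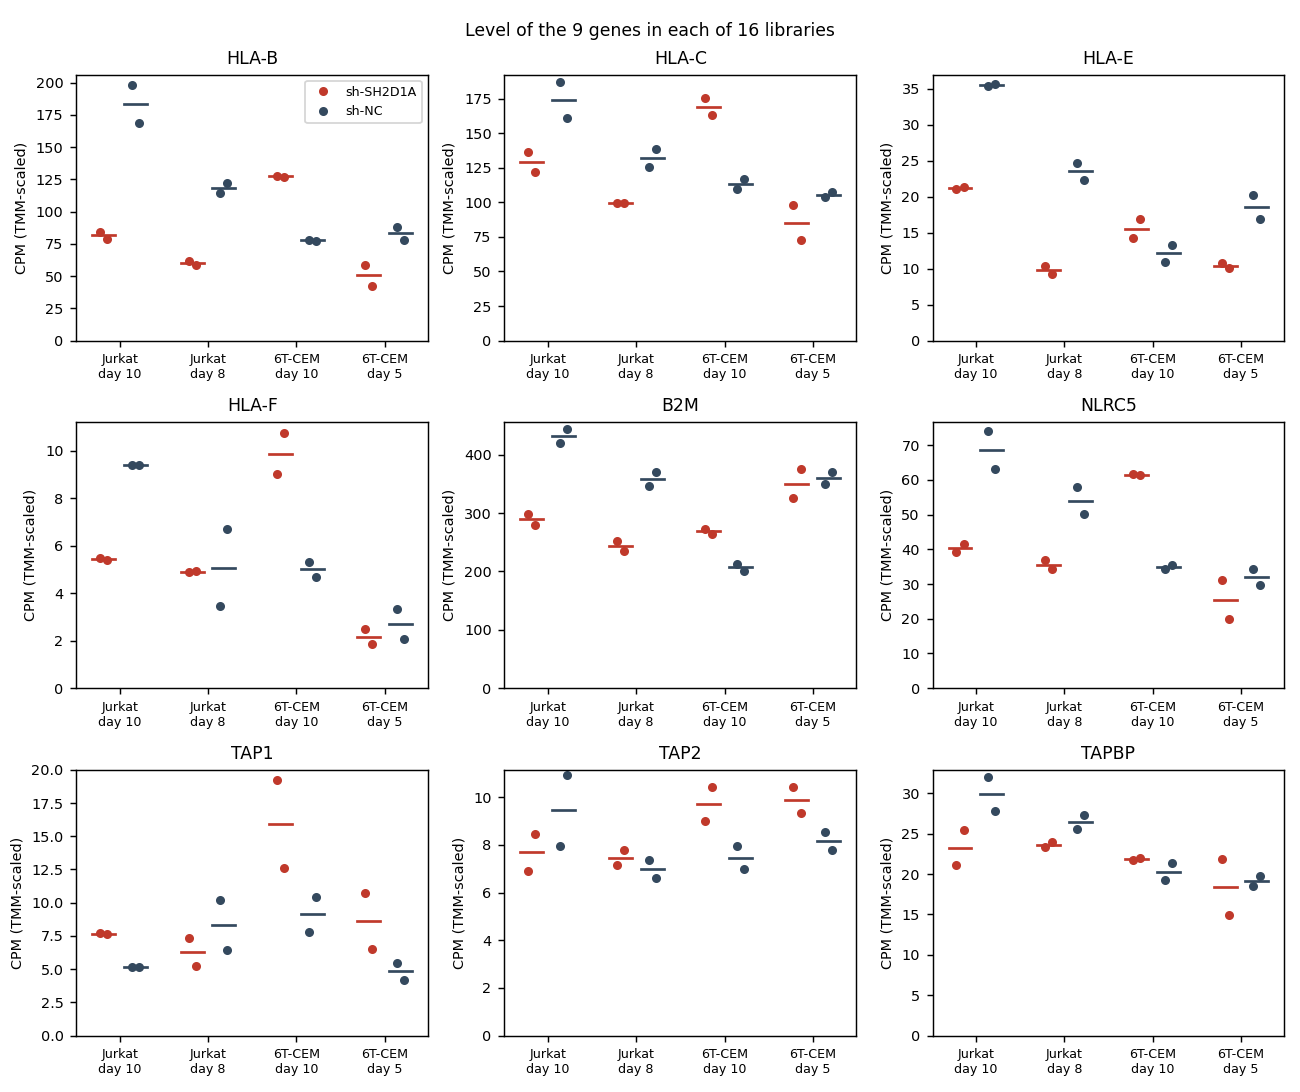
Level of each of the 9 genes in TMM-scaled CPM (vertical axis, from 0) in each library of the 2 lines and 2 days per line; points are libraries, horizontal lines are group means, red is sh-SH2D1A and dark is sh-NC. HLA-B had 84.2 and 79.2 CPM with sh-SH2D1A against 199 and 169 CPM in sh-NC in Jurkat at day 10, and 128 and 127 CPM with sh-SH2D1A against 78.3 and 77.6 CPM in sh-NC in 6T-CEM at day 10.

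Counted over the 9, the sh-SH2D1A libraries lay below both controls for 7 members and above both for 1 in Jurkat at day 10, where 24.5% of all 19079 genes tested lay below and 24.2% above. In Jurkat at day 8 they lay below for 6 members, against 28.3% of 19266 genes, and the other 3 overlapped. Both sh-SH2D1A libraries of 6T-CEM at day 10 lay above both controls for all 9, against 28.1% of 19610 genes. Since these are the comparisons by which the members were chosen, the counts describe the choice. The change in Jurkat at day 10 minus that in 6T-CEM at day 10 was -1.88 ± 0.17 for HLA-B, -1.77 ± 0.40 for HLA-F, -1.58 ± 0.22 for NLRC5, -1.10 ± 0.19 for HLA-E and -1.005 ± 0.16 for HLA-C. It was -0.96 ± 0.11 for B2M, -0.68 ± 0.26 for TAP2, -0.47 ± 0.22 for TAPBP and -0.23 ± 0.42 for TAP1. The change in SH2D1A itself was also larger in Jurkat, by -0.60 ± 0.13 (edgeR interaction, adjusted p = 0.0405), so line and depth of knockdown cannot be told apart at day 10.

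**Figure D2:**
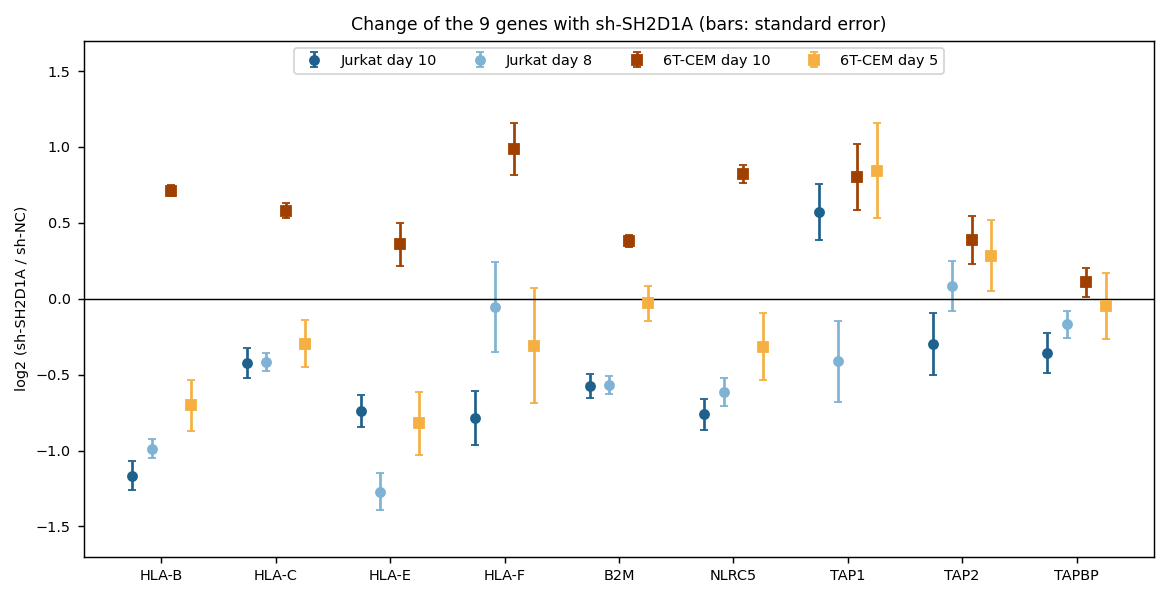
Change of the 9 genes with sh-SH2D1A as log2 of sh-SH2D1A over sh-NC (vertical axis), with standard errors as bars, from 2 libraries per group in each line and day. The 6T-CEM day 10 points (brown squares) lie above 0 for all 9, up to 0.99 for HLA-F, and the Jurkat day 10 points (dark blue circles) lie below 0 for 8, down to -1.17 for HLA-B, with TAP1 at 0.57.

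The comparison of sh-SH2D1A with sh-NC in 6T-CEM at day 5 was not named in the choice, and there the 9 were tested. Its sh-NC libraries did enter the choice, through the levels by day in the controls. The p-values are therefore not fully independent of the choice. None passed the edgeR quasi-likelihood test over 19482 genes (0 of 9 higher and 0 of 9 lower, where 0.606% of all genes were called higher, 1.51% lower and 2.11% either way). At an unadjusted p under 0.05 were 3, HLA-B and HLA-E on the low side and TAP1 on the high side. HLA-B had 58.9 and 42.5 CPM with sh-SH2D1A, against 88.0 and 78.2 CPM in sh-NC, and HLA-E 10.7 and 10.1 CPM against 20.2 and 16.9 CPM. Both sh-SH2D1A libraries lay below both controls for 3 members, HLA-B, HLA-C and HLA-E, and above both for 2, TAP1 and TAP2, where 25.3% of all genes lay below and 23.3% above. The changes were -0.70 ± 0.17 for HLA-B (edgeR adjusted p = 0.076) and -0.82 ± 0.21 for HLA-E (edgeR adjusted p = 0.0861). DESeq2 called both lower (adjusted p = 0.00294 and 0.0126), and it called 2 of the 9 in all. With a replicate block edgeR called 2 of the 9 lower and 0 higher. HLA-C had 97.8 and 72.8 CPM with sh-SH2D1A, against 104 and 107 CPM in sh-NC (-0.30 ± 0.15, edgeR adjusted p = 0.371).

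At that day B2M stood at 326 and 375 CPM with sh-SH2D1A, against 351 and 371 CPM in sh-NC, with overlapping libraries (-0.03 ± 0.12, edgeR adjusted p = 0.932). The 4 heavy chains per kb came to 0.641 and 0.413 times B2M with sh-SH2D1A, against 0.765 and 0.684 in sh-NC. TAP1 had 10.8 and 6.53 CPM with sh-SH2D1A, against 5.48 and 4.22 CPM in sh-NC (0.84 ± 0.31, edgeR adjusted p = 0.209). The other 4 changed by -0.31 ± 0.38 for HLA-F, -0.32 ± 0.22 for NLRC5, 0.28 ± 0.23 for TAP2 and -0.05 ± 0.22 for TAPBP (edgeR adjusted p = 0.740, 0.510, 0.586 and 0.942), and of these only TAP2 had libraries that did not overlap. NLRC5 had 31.1 and 19.9 CPM in the sh-SH2D1A libraries, on either side of the lower control, against 34.3 and 29.8 CPM in sh-NC. More genes were called by edgeR without either of the 2 sh-SH2D1A libraries, 2865 without replicate 1 and 2139 without replicate 2, than the 412 with both. Such a fit has 1 sh-SH2D1A library and takes its spread from the 2 sh-NC libraries, on the assumption that the lone library varies like them, so its p-values leave out the spread of the least alike pair. Without sh-SH2D1A replicate 1 edgeR called 4 members lower, HLA-B, HLA-C, HLA-E and NLRC5 (changes of -0.96, -0.53, -0.86 and -0.68, adjusted p = 3.86e-07, 0.00087, 0.0111 and 0.0128). Without replicate 2 it called HLA-B and HLA-E lower and TAP1 higher (-0.48, -0.78 and 1.16, adjusted p = 0.00525, 0.029 and 0.00611). HLA-B and HLA-E were thus called lower either way, while HLA-C and NLRC5 changed by -0.09 and -0.03 without replicate 2 (adjusted p = 0.688 and 0.955) and TAP1 by 0.44 without replicate 1 (adjusted p = 0.428). B2M, HLA-F, TAP2 and TAPBP passed neither way (adjusted p = 0.330 to 0.922). Mitochondrial genes took 7.98 and 9.19% of the counts in this sh-SH2D1A pair, against 7.44 and 7.63% in its sh-NC pair, and the part of this in the results was not tested.

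In the controls at day 10, Jurkat had higher class I transcripts than 6T-CEM. This comparison was not named in the choice, but its 4 sh-NC libraries were part of the comparisons that were. Choosing genes lower with sh-SH2D1A in Jurkat and higher in 6T-CEM can favour high Jurkat and low 6T-CEM controls. The p-values here are therefore not independent of the choice. Of the 9, edgeR called 7 higher in Jurkat and 1 lower, where 18.4% of 22032 genes were called higher and 18.2% lower. Libraries of 35.1% of genes were higher with no overlap. B2M had 421 and 444 CPM in Jurkat sh-NC libraries, against 214 and 200.5 CPM in 6T-CEM sh-NC (1.06 ± 0.08, adjusted p = 1e-07). HLA-E had 35.4 and 35.7 CPM against 11.0 and 13.4 CPM (1.55 ± 0.14, adjusted p = 8.78e-07), the widest difference between the lines. HLA-B and HLA-C differed by 1.24 ± 0.12 and 0.62 ± 0.12 (adjusted p = 2.08e-06 and 0.000751) and NLRC5 by 0.98 ± 0.15 (adjusted p = 0.000194). All 5 of these calls held when each of the 4 libraries was left out in turn, which does not remove their dependence on the choice. HLA-F and TAPBP, at 0.91 ± 0.28 and 0.56 ± 0.15 (adjusted p = 0.0198 and 0.0105), did not stand as firmly. The call of HLA-F was lost without each of the 4 libraries in turn (adjusted p = 0.0622 to 0.131), and that of TAPBP without replicate 1 of Jurkat (adjusted p = 0.107) or of 6T-CEM (adjusted p = 0.0931). TAP1 was lower in Jurkat, with 5.14 and 5.19 CPM against 7.81 and 10.5 CPM (-0.82 ± 0.30, adjusted p = 0.0438), a call also lost without each library (adjusted p = 0.0505 to 0.260). TAP2 differed by 0.34 ± 0.18 and did not pass (adjusted p = 0.170). The lines were deposited in separate tables and carry their own HLA alleles, so line, table and the sharing of reads with unnamed copies cannot be told apart here.

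Per kb of transcript the order of the members was alike in both control groups at the top. B2M stood at 247 and 260.4 CPM per kb in Jurkat day 10 sh-NC libraries and at 125 and 118 in 6T-CEM day 10 sh-NC. HLA-B and HLA-C came next, between 103 and 182 CPM per kb in Jurkat and between 70.8 and 75.0 in 6T-CEM, and the 2 could not be ordered in 6T-CEM, where their ranges overlapped. TAPBP, HLA-E, NLRC5, HLA-F, TAP1 and TAP2 all lay at or below 16.98 CPM per kb in both lines. TAP1 and TAP2 were the lowest in Jurkat, between 1.40 and 1.93 CPM per kb, with ranges that overlapped.

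**Figure D3:**
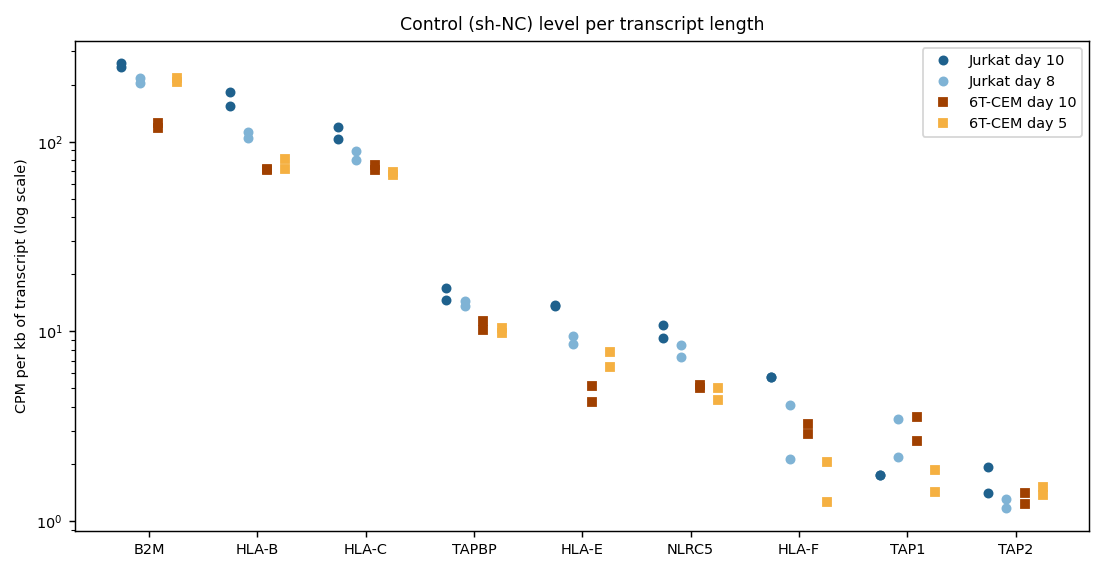
Level of the 9 genes in the sh-NC libraries as CPM per kb of transcript (vertical axis, log scale), by line and day; each point is a library. B2M, HLA-B and HLA-C lie at 70.8 or above at day 10, and the other 6 lie at 16.98 or below.

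By day, the controls of the 2 lines differed in opposite ways without overlap for B2M, HLA-E and TAP1, and levels by day were part of the choice. B2M and HLA-E were lower at day 10 in 6T-CEM and higher in Jurkat, while TAP1 went the other way in each line. In 6T-CEM B2M had 214 and 200.5 CPM at day 10, against 351 and 371 CPM at day 5 (-0.80 ± 0.08), and HLA-E 11.0 and 13.4 CPM against 20.2 and 16.9 CPM (-0.61 ± 0.14). HLA-F and TAP1 were higher at day 10 by 0.88 ± 0.29 and 0.91 ± 0.30, while HLA-B, HLA-C, NLRC5, TAP2 and TAPBP differed by -0.13 to 0.12. HLA-B and HLA-C transcripts thus stayed near their day 5 level while those of their partner chain B2M did not. In 6T-CEM 3 members lay above and 2 below at day 10 without overlap, where 34.3 and 35.9% of all 22032 genes did, and 39.9% of genes were called between the days. In Jurkat, 8 members were higher at day 10 than at day 8 without overlap, where 24.9% of all genes were, and TAP1 was lower, where 24.1% were. Of all genes 1.83% were called higher and 1.57% lower between these days. HLA-B had 199 and 169 CPM at day 10, against 115 and 122 CPM at day 8 (0.63 ± 0.12), B2M changed by 0.27 ± 0.07, HLA-E by 0.59 ± 0.13 and TAP1 by -0.69 ± 0.30. Each day is a table of its own, so day and table cannot be told apart, and days 5 and 8 are not one time.

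Other class I and class I-like genes formed a fixed list that was tested in every comparison. In Jurkat 2 of 15 fell and 0 rose at day 10 (2.52% of all genes fell, and 3.78% changed either way), and 7 of 15 fell and 0 rose at day 8 (7.13% fell and 5.23% rose). In 6T-CEM 1 rose and 3 of 15 fell at day 10, where 6.61% of all genes rose and 7.42% fell, and 1 of 15 fell at day 5 (1.51%). Between the lines at day 10 the change of 1 of 16 differed downwards and of 0 upwards, where 0.295% of all genes differed downwards, 0.517% upwards and 0.812% in all. CD1E, which takes part in lipid presentation, fell in Jurkat at day 10 (-0.53 ± 0.07, edgeR adjusted p = 0.00391) and at day 8 (-0.59 ± 0.05, adjusted p = 0.000999). It also fell in 6T-CEM at day 10 (-0.34 ± 0.08, adjusted p = 0.0215). CD1A, another lipid-presenting chain, fell in 6T-CEM at day 10 (-0.47 ± 0.08, adjusted p = 0.00495) and was the one that fell at day 5 (-0.96, adjusted p = 0.0497). The day 5 call of CD1A was lost without sh-NC replicate 1. Fits without 1 of the sh-SH2D1A libraries leave out the spread of that pair and cannot add to this call. The list's median change was -0.19 at day 10 and -0.41 at day 8 in Jurkat, -0.11 at day 10 and -0.24 at day 5 in 6T-CEM, and the median of all genes was within 0.01 of 0 in each.

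Among other loading and trimming genes 1 of 8 fell in Jurkat at day 10 (2.52% of all genes), and 4 fell and 1 rose in 6T-CEM at that day (7.42 and 6.61%). ERAP2, an aminopeptidase that trims peptides, rose in 6T-CEM at day 10 (0.43 ± 0.05, edgeR adjusted p = 0.000742), and CALR, the chaperone calreticulin of the loading complex, fell there (-0.48 ± 0.03, adjusted p = 2.08e-05). ERAP1, a related aminopeptidase, fell in 6T-CEM at day 10 too (-0.33 ± 0.05, adjusted p = 0.00424), so the trimming genes of one line and day went both ways. Immunoproteasome genes did not pass the test in 6T-CEM at day 10 (0 of 5 higher, 0 lower, at a median of 0.04), and in Jurkat at day 10 PSMB10 fell (-0.54 ± 0.10, adjusted p = 0.019, lost without sh-NC replicate 1 at adjusted p = 0.0649). Class II genes were rare, and none of the 13 was above 3.06 CPM in any library. CIITA, the class II coactivator related to NLRC5, had 1.21 and 2.89 CPM in 6T-CEM day 10 sh-SH2D1A libraries, against 0.943 and 1.10 CPM in sh-NC (1.00 ± 0.42, edgeR adjusted p = 0.163).

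Factors that act on class I promoters went 2 ways. NFKB1, the p50 precursor of NF-kB, fell in all 4 comparisons. It had 25.5 CPM in both Jurkat day 10 sh-SH2D1A libraries, against 64.1 and 71.6 CPM in sh-NC (-1.41 ± 0.10, edgeR adjusted p = 9.47e-05), and 28.1 and 30.1 CPM in 6T-CEM day 10 sh-SH2D1A libraries, against 66.9 and 73.1 CPM in sh-NC (-1.26 ± 0.07, adjusted p = 2.13e-05). Its Jurkat day 8 and 6T-CEM day 5 changes, -1.14 ± 0.07 and -1.22 ± 0.16, passed as well (adjusted p = 0.000324 and 0.00782). At day 5 NFKB1 changed by -1.35 without sh-SH2D1A replicate 1 and by -1.10 without replicate 2. HLA-B, which matched the kB pattern searched for, was higher with sh-SH2D1A in 6T-CEM at day 10 while NFKB1 was lower. In Jurkat on both days both were lower, as they were in 6T-CEM at day 5, where HLA-B did not pass the edgeR test. Any part of NFKB1 in the level of HLA-B was not tested. IRF1, an interferon-responsive factor, fell in Jurkat and rose in 6T-CEM at day 10. It had 110.2 and 107 CPM in Jurkat day 10 sh-SH2D1A libraries, against 144 and 133 CPM in sh-NC (-0.35 ± 0.08, adjusted p = 0.0419). 6T-CEM cells at day 10 had 54.7 and 57.5 CPM with sh-SH2D1A, against 47.7 and 47.9 CPM in sh-NC (0.23 ± 0.06, adjusted p = 0.0267). The difference between the lines was -0.58 ± 0.12 (edgeR interaction, adjusted p = 0.035), and this call was lost without each of the 8 libraries in turn (adjusted p = 0.0627 to 0.182). IRF1 calls within Jurkat at day 10 and within 6T-CEM at day 10 were lost without 3 of the 4 libraries each (adjusted p = 0.105 to 0.138 and 0.0992 to 0.106). Of the 12 factors of that list 3 fell in Jurkat at day 10, IRF1, IRF2 and NFKB1 (2.52% of all genes), and in 6T-CEM at day 10 1 rose and 1 fell (6.61 and 7.42%). RFX5, a DNA-binding partner of NLRC5 at the X box, changed by 0.09 ± 0.08 and 0.03 ± 0.04 in Jurkat and 6T-CEM at day 10 and did not pass (adjusted p = 0.580 and 0.695).

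Interferon response genes rose in part in 6T-CEM at day 10, where 7 of 48 rose and 3 fell (6.61 and 7.42% of all genes). IRF9, a DNA-binding subunit of the factor that type I interferon activates, had 10.1 and 8.90 CPM with sh-SH2D1A, against 3.40 and 3.71 CPM in sh-NC (1.42 ± 0.17, edgeR adjusted p = 0.0013). GBP1, an interferon-induced GTPase, had 36.01 and 31.5 CPM with sh-SH2D1A, against 18.8 and 19.7 CPM in sh-NC (0.81 ± 0.09, adjusted p = 0.000918). OAS3, an interferon-induced antiviral enzyme, fell in the same cells (-0.42 ± 0.05, adjusted p = 0.001), so the list did not move as one. In Jurkat at day 10 0 of 49 list genes rose and 4 fell (1.26 and 2.52% of all genes), TRIM22, OAS3, OAS2 and GBP5. GBP1 had 34.6 and 36.8 CPM there with sh-SH2D1A, against 37.9 and 39.9 CPM in sh-NC (-0.12 ± 0.10, edgeR adjusted p = 0.579). The change of GBP1 differed between the lines by -0.93 ± 0.16 (edgeR interaction, adjusted p = 0.0123), a call lost without 4 of the 8 libraries (adjusted p = 0.0507 to 0.0792). IRF9 changed by 0.39 ± 0.21 in Jurkat at day 10 and did not pass (adjusted p = 0.364), and its difference between the lines, -1.03 ± 0.32, did not pass either (edgeR interaction, adjusted p = 0.236).

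**Figure D4:**
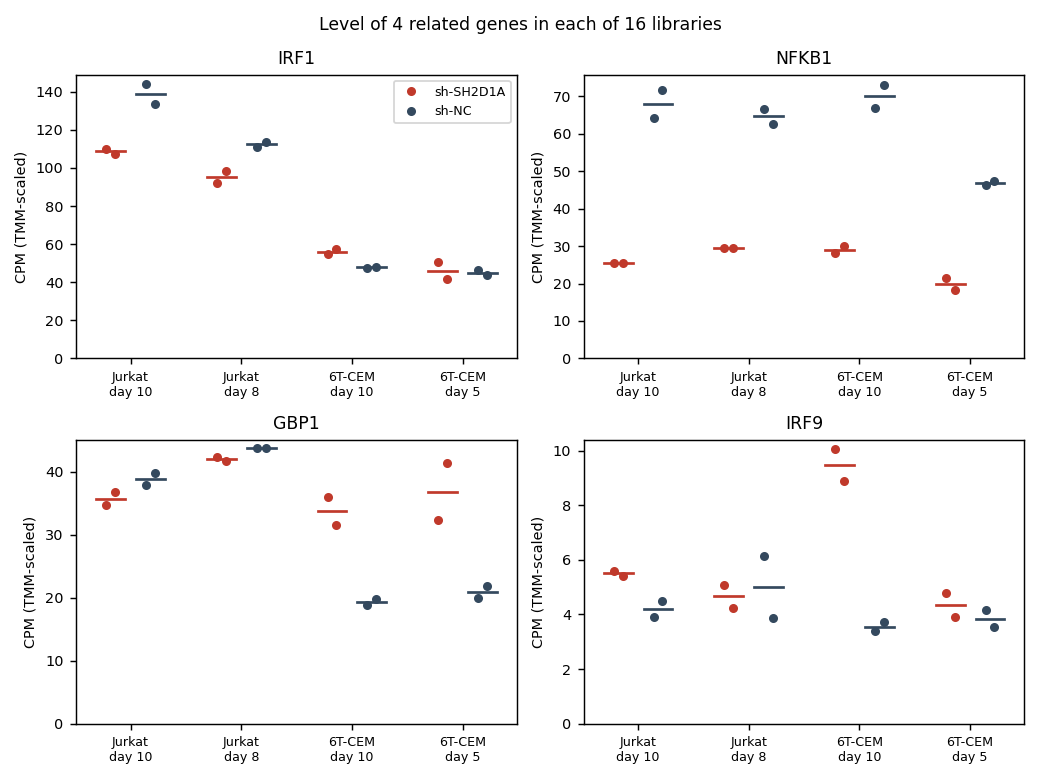
Level of IRF1, NFKB1, GBP1 and IRF9 in TMM-scaled CPM (vertical axis, from 0) in each library; points are libraries, horizontal lines are group means, red is sh-SH2D1A and dark is sh-NC. In 6T-CEM at day 10 NFKB1 had 28.1 and 30.1 CPM with sh-SH2D1A against 66.9 and 73.1 CPM in sh-NC, while IRF9 had 10.1 and 8.90 CPM with sh-SH2D1A against 3.40 and 3.71 CPM in sh-NC.

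After each line's own mean was taken off, the 9 genes were not one block over the 16 libraries. Pearson's r of a member with the mean of the other 8 was 0.936 for NLRC5, 0.923 for HLA-B and 0.904 for HLA-C, and 0.708, 0.687 and 0.670 for TAPBP, HLA-F and HLA-E. It was 0.327 for TAP2, 0.207 for TAP1 and 0.194 for B2M, and over the 36 pairs of members it ran from -0.41 to 0.94 with a median of 0.41. Of 13785 other genes, the 8 most like the mean of the members included IRF1 (r = 0.949), STIM1 (0.915), LY9 (0.909), HDAC7 (0.873), NLRP1 (0.863), DNAJC1 (0.855) and RETSAT (0.840). STIM1 encodes a calcium sensor of the endoplasmic reticulum, and LY9 a receptor of the SLAM family, whose tails SAP binds. LY9 averaged 18.9 CPM in Jurkat day 10 sh-SH2D1A libraries and 26.8 CPM in sh-NC, and 8.21 CPM in 6T-CEM day 10 sh-SH2D1A libraries and 4.501 CPM in sh-NC. These are correlations over libraries that share lines, days and depth, and they describe likeness of pattern alone.

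Markers of other cell types gave the following beside these results. In bulk libraries fewer cells of a type and less RNA per cell cannot be told apart. The 11 T cell markers summed to 3261 to 3403 CPM in Jurkat day 10 sh-SH2D1A libraries, against 3631 to 3747 CPM in sh-NC, and to 2861 to 2869 CPM against 3226 to 3356 CPM at day 8. In 6T-CEM they summed to 1926 to 1954 CPM with sh-SH2D1A, against 1965 to 1980.3 CPM in sh-NC at day 10, and to 2021 to 2120.0 CPM against 1967 to 1971 CPM at day 5. In Jurkat 4 of 11 fell and 0 rose at day 10 (2.52% of all genes fell) and 8 of 11 fell and 0 rose at day 8 (7.13%). CD3G, a chain of the T cell receptor complex, lay on the high side there, with 221 and 224 CPM in Jurkat day 10 sh-SH2D1A libraries, against 182 and 188 CPM in sh-NC, and did not pass (0.27 ± 0.08, edgeR adjusted p = 0.0812). In 6T-CEM at day 10 5 of 11 fell and 3 rose, where 7.42% of all genes fell and 6.61% rose, so the near-equal sums cover changes both ways, and at day 5 0 of 11 passed in either direction. The part of these markers in the class I values was not tested. The 6 B cell markers summed to at most 74.9 CPM, and CD79A, a chain of the B cell receptor complex, took up to 74.0 CPM. In 6T-CEM at day 10 2 of the 3 tested fell, CD79A, with 28.1 and 24.9 CPM with sh-SH2D1A against 42.1 and 41.3 CPM in sh-NC (-0.65 ± 0.08, edgeR adjusted p = 0.0013), and its partner CD79B (-1.09 ± 0.26, adjusted p = 0.0262). The 7 myeloid markers summed to at most 3.55 CPM and the 5 epithelial and packaging cell markers to at most 5.73 CPM. Natural killer markers summed to 9.57 to 11.0 CPM in 6T-CEM day 10 sh-SH2D1A libraries, against 8.20 to 8.35 CPM in sh-NC, and NCR1 was at 0 in all 16 libraries. NCAM1, the adhesion molecule CD56, rose in Jurkat at a low level, with 0.714 and 1.10 CPM in day 10 sh-SH2D1A libraries, against 0.175 and 0.142 CPM in sh-NC (2.48 ± 0.58, edgeR adjusted p = 0.0419), and with 0.833 and 0.633 against 0.127 and 0.181 CPM at day 8 (2.21 ± 0.56, adjusted p = 0.0419). KLRD1, which encodes a subunit of a receptor for HLA-E, had 1.52 and 2.05 CPM in 6T-CEM day 10 sh-SH2D1A libraries, against 0.202 and 0.0942 CPM in sh-NC (3.57 ± 0.47, edgeR adjusted p = 0.00182). These sh-NC values rest on 6 and 3 counts, so the size of the change is uncertain. KLRC1, another marker of that list, had 0 counts in every library of both groups.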

How the data were processed

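RNA was sequenced from Jurkat and 6T-CEM cells after TRIzol extraction and TruSeq library preparation, per the labels' protocols. HISAT2 2.2.0, StringTie and build hg38 are named per the submitters' processing notes; the counting step and annotation release were not given in the sources used here. The authors deposited raw counts per gene in a table for each line and day. The members and all lists were chosen with earlier results of these data known. In R 4.3.3, edgeR 4.0.16 fitted quasi-likelihood models (TMM scaling, filterByExpr with a minimum count of 10, two-sided, Benjamini-Hochberg adjustment over all genes tested, threshold 0.05). Each sh-SH2D1A comparison used its own table of 4 libraries; comparisons across tables used all 16 libraries. A standard error is the size of the log2 change over the root of F. DESeq2 1.42.0, DESeq2 size factors, other filters, a replicate block, other sets of libraries and leaving out each library were alternatives. Named are the members, SH2D1A, up to 4 called genes of a list with the lowest adjusted p in a comparison, and the 8 genes most alike over the 16 libraries; CIITA, RFX5, PSMB9 and single markers were named after their values were seen. The lists were other class I, other loading and trimming, immunoproteasome, constitutive proteasome, class I activators and repressors, class II and interferon genes, and markers of T, B, myeloid, epithelial and natural killer cells. On simulated data, 77.5% of 200 genes changed 2-fold were recovered in the 6T-CEM day 5 comparison of 18840 genes, with 24 false calls. A floor of 3 counts was 0.0888 to 0.110 CPM and covers counting error only. Some results of the listed genes are not reported here.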

Additional observations from a re-analysis of the deposited data

Results flagged for a closer look

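The change with sh-SH2D1A in Jurkat at day 10 minus that in 6T-CEM at day 10 was flagged for 7 members because both sh-SH2D1A libraries lay below both controls in Jurkat and above both in 6T-CEM. It was -1.88 for HLA-B, -1.005 for HLA-C, -1.10 for HLA-E, -1.77 for HLA-F, -0.96 for B2M, -1.58 for NLRC5 and -0.47 for TAPBP on the log2 scale. These differences were not tested, since the members were chosen for them.

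Genes that were no members were flagged where the edgeR interaction test found their change to differ between the lines. The difference was -0.93 for the interferon-induced GTPase gene GBP1 (adjusted p = 0.0123), 0.49 for CALR (adjusted p = 0.0124) and -0.58 for IRF1 (adjusted p = 0.035). The call of GBP1 was lost without 4 of the 8 libraries, that of CALR without 6 and that of IRF1 without each.

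Identifiers annotated off the primary assembly, which no comparison of the members used, held 1.44% of the counts in the library with the least and 2.08% in that with the most, above the limit that a count of 0 allows.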

How the results depend on the processing

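Of 747 recomputed member values 8 changed sign, 6 of them with a value within 0.1 of 0; the others were HLA-F in 6T-CEM at day 5 (0.08 without sh-NC replicate 1) and the line difference of TAP1 (0.08 without 6T-CEM day 10 sh-SH2D1A replicate 1). Of 1178 values of other named genes 163 lost their call, 115 of them without a library, and 0 reversed. The causes of the following were not tested. Genes called numbered 2381 in Jurkat at day 8 (873 with no filter, 1323 with all 16 libraries, 633 to 2978 without a library), 721 in Jurkat at day 10 (557 to 979 without a library), 412 in 6T-CEM at day 5 (1118 by DESeq2, 3108 with all 16 libraries, 298 to 2865 without a library) and 2752 in 6T-CEM at day 10 (1099 with no filter, 916 with all 16 libraries, 2004 to 2225 without a library). With no filter edgeR called 0 genes in Jurkat at day 10, with 3533 at an unadjusted p under 0.05, and DESeq2, with the filter, called 1052. Between the control lines 8066 were called (5722 to 6204 without a library), between days in 6T-CEM 8797 (6505 to 7797) and in Jurkat 749 (94 to 335; 1561 by DESeq2), and for the line difference 179 (67 to 113; 443 by DESeq2).

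Members called lower in 6T-CEM at day 5 numbered 0 (2 by DESeq2, 2 with all 16 libraries, 0 to 4 without a library) and higher 0 (0 to 1 without a library). Members called higher in Jurkat controls numbered 7 (5 to 6 without a library) and lower 1 (0 in each fit without a library).

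Replicate numbers were shared by the groups, and whether they pair the libraries is not given in the sources used here. Over 22032 genes the deviations of same-numbered libraries correlated by 0.0181 and 0.0161 in Jurkat at days 8 and 10. In 6T-CEM these correlations were 0.00959 at day 5 and 0.00636 at day 10. The replicate block still raised the genes called in 6T-CEM at day 5 from 412 to 2188, and the source of that rise was not tested. With the replicate block, genes called numbered 1797 for Jurkat on day 8 and 1423 on day 10, 2188 for 6T-CEM on day 5 and 2796 on day 10, 8136 between lines, 8829 and 856 between days in 6T-CEM and Jurkat, and 255 for the line difference; members numbered 2 lower and 0 higher in 6T-CEM at day 5, and 7 higher and 1 lower in Jurkat controls. With 2 libraries a group and at most 358 counts of HLA-F, small changes of HLA-F, TAP1 and TAP2 were not detectable.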

Other observations

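Proteasome genes, which make the peptides that class I molecules carry, differed by day in the 6T-CEM controls. Of the immunoproteasome genes 4 of 5 were higher at day 10 than at day 5 and 0 lower, and of the constitutive catalytic genes 3 of 3 were higher, where 19.3% of all genes were called higher. PSMB8, an immunoproteasome subunit, had 19.7 and 17.6 CPM at day 10, against 1.91 and 8.58 CPM at day 5 (1.84 ± 0.47, edgeR adjusted p = 0.00575). The day 5 libraries differed widely, and the change was 1.13 without the first and 3.30 without the second (adjusted p = 0.0254 and 0.000112). PSMB10, another such subunit, differed by 1.11 ± 0.19 (adjusted p = 0.000386). Day and table cannot be told apart. PSMB5, a constitutive catalytic subunit, rose with sh-SH2D1A in both lines at day 10, by 0.48 in Jurkat (adjusted p = 0.0232) and by 0.30 in 6T-CEM (adjusted p = 0.00423). Of 7 genes that repress class I transcription 0 passed in Jurkat at day 10, and 1 rose and 1 fell in 6T-CEM at day 10 (6.61 and 7.42% of all genes).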
